A study of Mus musculus with 18 samples.

Results

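The soleus and the gastrocnemius of control mice were compared across all expressed genes. The comparison rests on the 10 control libraries of a series of 18: 5 of soleus (title numbers 34, 36, 37, 38 and 41) and 5 of gastrocnemius (1, 3, 4, 5 and 8), taken by their titles and by no measured value. The controls, 12 weeks old, on chow and fasted for 4 h before harvest, had loxP-flanked (floxed) Mbtps1, the gene of Site-1 Protease. The other 8 libraries, 4 per muscle, came from mice with the same floxed allele and HSACre, in which the human skeletal actin promoter directs Cre to muscle fibres. Every library thus comes from a strain with the floxed allele, and none from an unmodified mouse or one with Cre alone. The series text states 4 per group, whereas the titles place 5 controls in each muscle, and the titles were followed. The labels name the whole muscle as tissue, give no sex and do not say that the libraries came from separate mice. The p-values thus speak to a spread between libraries, part of which may be technical. That spread was estimated over all 18 libraries, knockouts included. Values for single libraries are given in the order of title numbers stated here, as CPM, a gene's count over the TMM-scaled library size, times 1000000. A pair of levels joined by "against" is the mean ± SD of soleus and then of gastrocnemius (n = 5 each), and a log2 fold change is soleus over gastrocnemius, with its standard error (SE) after ±.

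The soleus is a postural calf muscle that works nearly continuously at low force, and the gastrocnemius beside it is used for fast, forceful movement. Fibres are classed by the myosin heavy chain they express: slow type I (Myh7), fast oxidative 2A (Myh2), fast intermediate 2X (Myh1) and fast glycolytic 2B (Myh4). Motor nerve activity reaches these genes through calcium-dependent signals, among them calcineurin and calmodulin kinases, and through transcription factors such as Sox6, Mef2c, Tead1, Mafa and the nuclear receptors. In bulk muscle, fewer cells of a type and less RNA per cell cannot be told apart.

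The control libraries held 38992432 to 51176391 counts in gastrocnemius and 46544563 to 78219534 in soleus. As shares of the unscaled library totals, mitochondrially encoded genes took 9.43% to 10.37% in soleus and 7.5% to 8.87% in gastrocnemius, with no overlap. The TMM factors, which correct each library for the share taken by a few abundant genes, were 0.8692 to 0.9175 in gastrocnemius and 1.054 to 1.115 in soleus. With library totals alone in place of these factors, the median log2 fold change of all genes moved from 0.08 to 0.35, and the share of called genes that were higher in soleus from 55.6% to 79.8%. Fold changes are therefore relative to the TMM scale. Where library totals alone turn the balance of higher and lower calls in a list, those counts are given in brackets after "totals". On the TMM scale, 2 of 21 tested mitochondrially encoded genes were called higher in soleus and 3 lower (totals: 7 and 0). Their median log2 fold change was -0.08. Muscle fibre genes were abundant in all 10 libraries: Acta1, skeletal actin, had 18333 ± 783 CPM in soleus and 29654 ± 2485 CPM in gastrocnemius. Y-linked Ddx3y was counted at 1872 to 5040 reads in every control library and Xist at 0 to 10. Mbtps1, the floxed gene, was at 32.3 ± 1.5 CPM in soleus and 31.5 ± 2.4 CPM in gastrocnemius, a difference that did not pass the test (adjusted p = 0.684; 0.00344 with library totals alone and up to 0.975 over the 19 alternative settings).

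Genes were called in both directions between the muscles. Of 18494 genes tested with edgeR, 5074 were higher in soleus (27.4%) and 4048 lower (21.9%) at an adjusted p under 0.05, 49.3% in all. The excess of higher calls depended on the fit: with the 10 control libraries fitted alone, 4623 were higher and 4599 lower. At a fold of at least 2 as well, 2025 were higher (10.9%) and 1000 lower (5.41%), together 16.4%. In 6786 genes (36.7%) the 5 soleus and 5 gastrocnemius libraries did not overlap. These shares are the background against which each group of genes below is read.

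**Figure D1:**
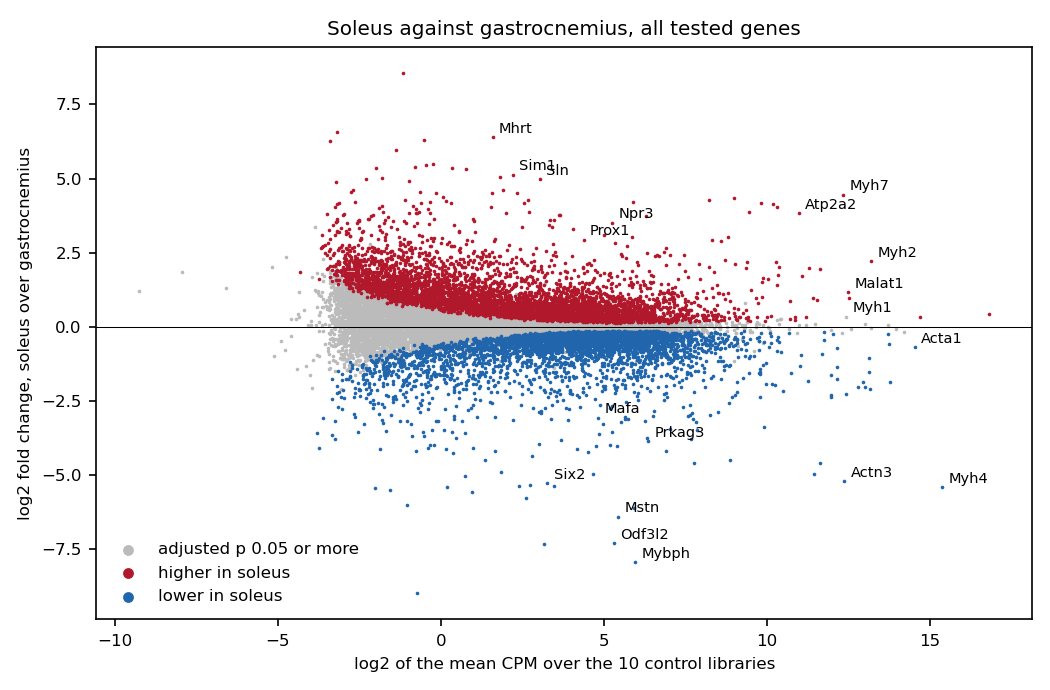
Log2 fold change of soleus over gastrocnemius controls (vertical) against the log2 of the mean CPM over the 10 control libraries (horizontal), 1 point per tested gene with a count in these libraries; colours mark genes at an adjusted p under 0.05. Myh4, at the far right, and Mybph and Mstn are far below the line, and Mhrt, Sim1 and Myh7 are far above it.

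Myosin heavy chain transcripts divided the muscles. Per length (RPKM), Myh4 made up 91.5% ± 0.677 (SD, n = 5) of the 4 adult heavy chains in gastrocnemius and 6.82% ± 5.23 in soleus. In soleus, Myh2 led with 47% ± 4.86, followed by Myh7 with 25.1% ± 3.01 and Myh1 with 21.1% ± 3.69. In gastrocnemius, Myh1 took 5.1% ± 0.608, Myh2 3.09% ± 0.132 and Myh7 0.35% ± 0.0614. The soleus libraries differed most in Myh4, from 0.49% in library 37 to 14.96% in library 41. Within soleus, the ranges of the Myh7 share (21.6% to 28.7%) and the Myh1 share (15.4% to 25.5%) overlapped. The heavy chain genes are close in sequence and lie side by side on chromosome 11 (Myh7 on chromosome 14), so that these shares are uncertain to the extent that reads were split between them.

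**Figure D2:**
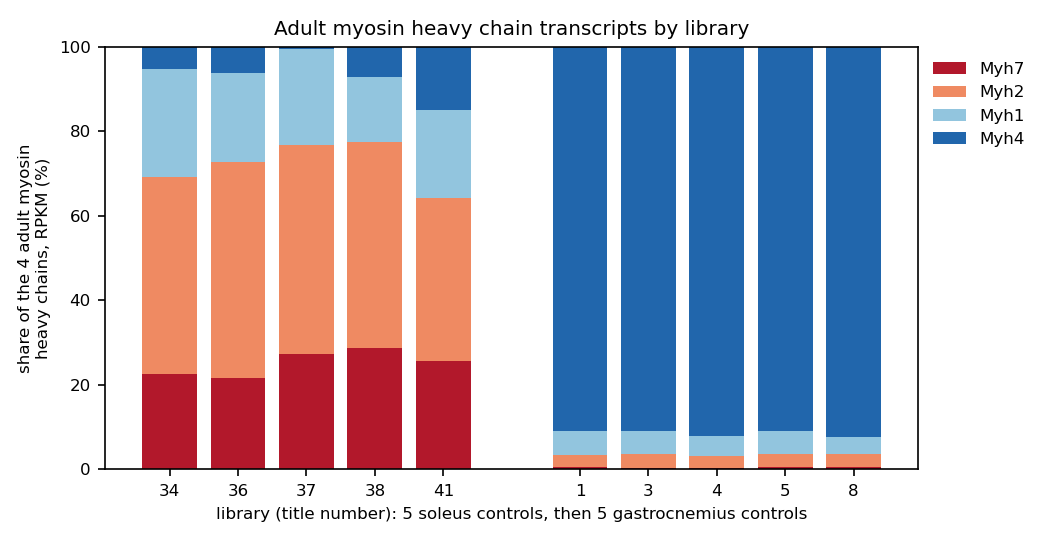
Share of each adult myosin heavy chain in the sum of the 4, by RPKM, as stacked bars for the 5 soleus (left) and 5 gastrocnemius (right) control libraries. Myh4 fills 90.86% to 92.3% of every gastrocnemius bar, and Myh2 is the widest band in every soleus bar.

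Myh7 (chr14:54970688-54994634), the slow heavy chain, had 9278, 8133, 10094, 11485 and 10812 CPM in soleus and 509, 346, 397, 530 and 486 CPM in gastrocnemius. Every soleus library was above every gastrocnemius library, with a log2 fold change of 4.46 ± 0.27 (SE, edgeR adjusted p = 1.33e-09). Myh4 (chr11:67238029-67260446) stood at 1508, 1642, 127, 2020 and 4441 CPM in soleus and at 83387, 76731, 91621, 83679 and 80478 CPM in gastrocnemius, a log2 fold change of -5.42 ± 0.85 (adjusted p = 9.89e-05). Its standard error was wide, and the soleus libraries themselves ran from library 37, the lowest, to library 41, the highest. Myh2 was higher in soleus (15435 ± 1064 against 3328 ± 112 CPM, log2 fold change 2.21 ± 0.10). Myh1 was the exception among the adult chains: at 7763, 5874, 6257, 4570 and 6511 CPM in soleus and 5309, 5029, 5000, 5264 and 3863 CPM in gastrocnemius the groups overlapped, and its log2 fold change of 0.34 ± 0.20 did not pass the test (adjusted p = 0.17; 0.0139 with library totals alone and up to 0.345 over the 19 settings). Myh8, the perinatal chain, was lower in soleus (44.8 ± 6.39 against 357 ± 51.3 CPM, log2 -2.99), and Myh6, the cardiac alpha chain, was higher (146 ± 17.1 against 11 ± 1.19 CPM, log2 3.73). Both stood far below Myh4 and Myh7, and are likewise uncertain to the extent that reads were split between heavy chain genes.

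The rest of the contractile apparatus divided the same way. All 20 genes of a slow-fibre list were called higher in soleus, each by at least 2-fold, with a median log2 fold change of 3.43 against 0.08 over all genes. Of 20 fast-fibre genes, 18 were at least 2-fold lower, Myh2 was higher and Myh1 was not called, with a list median of -2.15. Slow troponin subunits moved together: Tnnc1, the calcium-binding subunit, was at 982 ± 65.9 against 48.3 ± 10.5 CPM (log2 4.34 ± 0.28), Tnni1, the inhibitory subunit, at 569 ± 47.1 against 29.2 ± 7.63 CPM (log2 4.28 ± 0.29) and Tnnt1, which anchors the complex to tropomyosin, at 1718 ± 146 against 96.3 ± 20.7 CPM (log2 4.16 ± 0.23). Their fast counterparts differed less on the log scale, with Tnni2 at 2577 ± 267 against 6654 ± 616 CPM (log2 -1.37 ± 0.11) and Tnnt3 at 4649 ± 317 against 13371 ± 1211 CPM (log2 -1.52 ± 0.09). Tnnc2, the fast calcium-binding subunit, was counted at only 2.88 ± 0.357 against 10.5 ± 0.569 CPM, where an overlapping gene on the other strand, Ube2c, had a mean count of 149 against 306 for Tnnc2, so that its value is uncertain. Of the tropomyosins, Tpm3 was higher in soleus (2208 ± 114 against 126 ± 19.4 CPM), Tpm1 lower (3454 ± 304 against 14815 ± 1327 CPM) and Tpm2 higher (7755 ± 441 against 3980 ± 387 CPM). Regulatory and essential light chains followed their classes, with Myl2 (log2 3.88) and Myl3 (log2 4.03) higher and Myl1 (log2 -2.38) and Mylpf (log2 -2.30) lower.

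At the Z-disc and M-band, paralogues differed in opposite directions. Actn3, the fast-fibre alpha-actinin, had 327, 199, 108, 258 and 499 CPM in soleus and 11184, 9310, 10509, 10424 and 10359 CPM in gastrocnemius, a 37.3-fold difference, while Actn2 was 3.94-fold higher in soleus. Myoz2, a calcineurin-binding Z-disc protein, was 8.08-fold higher (805 ± 34.5 against 99.6 ± 15.9 CPM), and its relatives Myoz1 and Myoz3 were 5.18-fold and 4.61-fold lower. Myom3 of the M-band was 7.68-fold higher and Myom2 4.52-fold lower. The stretch-responsive Ankrd2 was at 677 ± 124 against 92.3 ± 12.2 CPM. In the family of Ankrd, Pdlim, Fhl, Csrp and Xin genes as a whole, 23 of 67 tested were higher and 17 lower (59.7% called), against a background of 49.3%.

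A pair of myosin genes carry a microRNA in an intron, and both hairpins were counted almost only in soleus. The mature sequences are shown because their seeds (bases 2 to 8, in capitals) share their first 6 of 7 bases; sequences are from RefSeq, GRCm38.p6.
miR-208b-3p: aUAAGACGaacaaaagguuugu
miR-499-5p: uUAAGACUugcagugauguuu
Over the Mir208b hairpin, in Myh7, soleus libraries held 59 to 134 reads each and gastrocnemius libraries 0 to 2, or 1.37 ± 0.355 against 0.0161 ± 0.0257 CPM. Over Mir499, in Myh7b, soleus libraries held 8 to 19 reads each and gastrocnemius libraries 0, which against a floor of 3 reads over the group is at least 14-fold. Mir499 fell under the count filter and was not tested. Long-fragment RNA-seq counts reads over the hairpin locus, introns of the host gene included, so that these are not levels of the mature microRNAs. Myh7b itself was at 113 ± 26.8 against 6.15 ± 0.809 CPM (log2 4.20 ± 0.30), and Trpc4ap overlaps it on the other strand with a mean of 5435 counts against 3777. Mhrt, a long non-coding RNA antisense to Myh7, had the largest fold change among the 15 named as highest, at 5.95 ± 1.54 against 0.0644 ± 0.0476 CPM (log2 6.39 ± 0.54), but Myh7, with which it overlaps, had a mean of 330283 counts against 198. Without a stated strand setting the reads of the 2 cannot be told apart.

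Among genes with a mean of at least 1 on the log2 CPM scale and no overlap between groups, Mybph had the largest fold change on the lower side. Mybph (chr1:134193448-134201232), a myosin-binding protein of the thick filament, had 0.486, 0.347, 0.361, 0.924 and 0.511 CPM in soleus and 165, 123, 85.9, 128 and 121 CPM in gastrocnemius, a 246-fold difference (log2 -7.94 ± 0.54, adjusted p = 1.09e-08). The uncharacterised 1700001O22Rik (0.112 ± 0.0674 against 17.7 ± 7.43 CPM, log2 -7.33 ± 0.48) and Odf3l2 (0.535 ± 0.392 against 79.1 ± 24.2 CPM) followed. Mstn (chr1:53061640-53068079), myostatin, the secreted inhibitor of muscle growth, had 1.46, 0.944, 0.373, 1.08 and 1.32 CPM in soleus and 77, 89, 78.6, 78 and 108 CPM in gastrocnemius (log2 -6.41 ± 0.40, adjusted p = 4e-09). Library 37 was the lowest soleus library for Mstn, as for Myh4. Mss51, a mitochondrial protein gene of fast muscle, was at 1.74 ± 0.508 against 120 ± 20.5 CPM. Cntnap2 and Cdh4, both cell adhesion genes, were at 0.226 ± 0.119 against 11.9 ± 2.3 CPM and 0.525 ± 0.0971 against 21.5 ± 4.84 CPM. Amd2 and Amd-ps3 are near copies of another adenosylmethionine decarboxylase gene and are uncertain.

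On the higher side, the 15 genes with the largest fold changes held 7 of the slow-fibre list and several with no contractile role. Sim1 (chr10:50895651-50989152), a basic helix-loop-helix transcription factor, had 8.98, 7.81, 8.37, 9.16 and 10.4 CPM in soleus and 0.086, 0.616, 0.118, 0.159 and 0.302 CPM in gastrocnemius, a 34.9-fold difference (log2 5.13 ± 0.30, adjusted p = 1.59e-11). Sln, sarcolipin, a small inhibitor of the calcium pump, was at 9.93, 17.6, 17.4, 18.7 and 16.1 CPM in soleus and at 0.366, 0.509, 0.472, 0.744 and 0.474 CPM in gastrocnemius. Tecrl, a gene of calcium handling in heart, had 6.79 ± 1.79 against 0.2 ± 0.252 CPM and 227 to 688 reads per soleus library against 0 to 20. Slc7a15 of the amino acid carriers was 24.3-fold higher (7.16 ± 2.25 against 0.293 ± 0.0858 CPM) and Sv2b, a vesicle glycoprotein, 22.7-fold higher (5.69 ± 3.18 against 0.24 ± 0.158 CPM). Sv2b is overlapped on the other strand by 1500012K07Rik, with 38.1 counts against 190.

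The start regions of 4 of these genes are printed, 250 bases upstream of the RefSeq start (GRCm38.p6, 5′ to 3′ on the gene's strand), 2 from the 15 genes with the largest fold changes each way. They were chosen after their motif matches were seen, Myh7b and Tpm3 for the ERR site and Mybph and Mstn for the TATA box, and do not stand for the other genes. Capitals mark matches on either strand to any of 5 motifs: the MEF2 core, which is CTA and TAG with 4 free bases between them, the MCAT element CATTCC bound by Tead factors, the estrogen-related receptor (ERR) site TCAAGGTCA, the E-box CAGCTG and the TATA box TATAAA. In Mybph the E-box and the MCAT element adjoin, and the capitals run through both.
Myh7b (chr2:155610993-155611242, plus strand): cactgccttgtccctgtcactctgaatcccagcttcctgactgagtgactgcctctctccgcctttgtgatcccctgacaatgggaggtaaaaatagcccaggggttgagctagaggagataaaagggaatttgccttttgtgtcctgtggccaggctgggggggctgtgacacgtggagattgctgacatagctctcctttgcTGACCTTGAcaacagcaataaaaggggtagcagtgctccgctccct
Tpm3 (chr3:90072401-90072650, plus strand): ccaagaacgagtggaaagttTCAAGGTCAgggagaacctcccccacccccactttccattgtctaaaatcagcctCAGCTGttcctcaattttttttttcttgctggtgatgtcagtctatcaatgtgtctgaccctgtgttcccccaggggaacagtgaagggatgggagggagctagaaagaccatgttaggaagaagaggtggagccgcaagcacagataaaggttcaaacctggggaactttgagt
Mybph (chr1:134193198-134193447, plus strand): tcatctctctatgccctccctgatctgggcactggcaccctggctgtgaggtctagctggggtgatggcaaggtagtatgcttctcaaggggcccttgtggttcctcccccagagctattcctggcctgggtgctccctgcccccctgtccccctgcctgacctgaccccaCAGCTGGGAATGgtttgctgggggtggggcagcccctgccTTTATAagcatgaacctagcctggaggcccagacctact
Mstn (chr1:53061390-53061639, plus strand): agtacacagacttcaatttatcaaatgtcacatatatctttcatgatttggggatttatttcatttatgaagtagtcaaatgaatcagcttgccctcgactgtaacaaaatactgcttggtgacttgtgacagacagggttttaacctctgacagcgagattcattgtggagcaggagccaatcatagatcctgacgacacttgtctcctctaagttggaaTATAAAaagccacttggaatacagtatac
Of 12199 tested genes with such a region, 8730 had a mean log2 CPM of at least 1, and the shares here are over those. The ERR site stood in 0.195% of them, in 3 of the 414 higher in soleus by at least 2-fold (0.725%, Myh7b and Tpm3 included) and in 0 of the 425 lower. The MEF2 core was found in 2.75% of all these regions, 2.9% of those higher and 3.06% of those lower. CATTCC stood in 10.5%, 12.3% and 12.5%, CAGCTG in 11.9%, 15.2% and 17.4%, and TATAAA in 6.33%, 10.4% and 8.47%. A match describes these letters only.

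Transcription regulators with a known part in fibre type were called in both directions: of 53 tested, 20 were higher in soleus, 18 lower and 15 not called (71.7% called). Prox1 (chr1:190118035-190170714), a homeobox factor of slow fibres, had 37.2, 29.8, 37.9, 41.7 and 38.2 CPM in soleus and 4.13, 4.1, 4.69, 5.45 and 5.69 CPM in gastrocnemius (log2 2.94 ± 0.16, adjusted p = 1.72e-11). No gastrocnemius library came near the soleus range. Six2 (chr17:85684277-85688274), a homeobox factor, had 0.356, 0.513, 0.501, 0.382 and 0.634 CPM in soleus and 18.2, 14.6, 22, 18.8 and 20.3 CPM in gastrocnemius, a 38.9-fold difference with little spread in either muscle (log2 -5.28 ± 0.17, adjusted p = 8.64e-16). Its relative Six4 was higher in soleus (61.3 ± 4.68 against 37.4 ± 3.74 CPM, log2 0.71). Of the Eya coactivators, Eya4 was lower (8.22 ± 1.28 against 44.6 ± 3.75 CPM, log2 -2.44 ± 0.17) and Eya1 did not pass (25.4 ± 3.37 against 29.3 ± 1.87 CPM, adjusted p = 0.0548; 0.0238 with DESeq2, 0.0382 with the replicate block, 0.00764 to 0.621 over the 19 settings). Dach2, a corepressor of the same network, was higher (11.7 ± 2.12 against 2.82 ± 0.709 CPM, log2 2.06).

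Mafa and Maf, large Maf factors, were lower in soleus. Mafa had 6.17, 5.58, 4.9, 7.37 and 6.23 CPM in soleus and 50.6, 45.3, 58, 55 and 44.3 CPM in gastrocnemius (log2 -3.07 ± 0.12, adjusted p = 2.07e-14), and Maf was at 42.6 ± 9.74 against 341 ± 17.9 CPM, 8-fold lower in soleus. No library of one muscle reached the range of the other for either gene. Sox6, a repressor of slow genes in fast fibres, was lower in soleus (83.4 ± 4.43 against 221 ± 11.2 CPM, log2 -1.41 ± 0.09), as was Tbx15, a T-box factor of glycolytic fibres (103 ± 8.55 against 202 ± 14.1 CPM, log2 -0.97 ± 0.08). Sox9, known from cartilage and tendon, was higher (22.7 ± 5.77 against 6.36 ± 0.754 CPM, log2 1.84), and so was Tbx1 (10.6 ± 1.3 against 3.37 ± 0.794 CPM, log2 1.66).

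Among nuclear receptors, 38 were tested, of which 8 were higher and 16 lower (totals: 12 and 10). That is 63.2% called, against a background of 49.3%. The estrogen-related receptors, which drive oxidative metabolism, were higher for all 3 members but by unequal amounts. Esrrg had 152, 142, 164, 179 and 161 CPM in soleus and 27.6, 29.5, 30, 35.2 and 32.6 CPM in gastrocnemius (log2 2.37 ± 0.09, adjusted p = 3.52e-15), Esrrb was at 35.8 ± 4.28 against 8.37 ± 1.38 CPM (log2 2.10 ± 0.13) and Esrra at 125 ± 5.62 against 102 ± 3.82 CPM (log2 0.29 ± 0.06). Ppara, the fatty acid sensor, was 3.71-fold higher (91.6 ± 17.7 against 24.7 ± 4.49 CPM), whereas Ppard was slightly lower (36 ± 3.01 against 45.3 ± 3.88 CPM, log2 -0.33), a call lost with library totals alone (adjusted p = 0.468; 3.51e-05 to 0.468 over the 19 alternative settings). The retinoid X receptors Rxrg (12.7 ± 1.89 against 50.7 ± 4.4 CPM, log2 -1.99) and Rxra (101 ± 8.97 against 241 ± 18.4 CPM, log2 -1.25) were lower, as were the orphan receptors Nr4a1 (109 ± 50.2 against 271 ± 29.9 CPM) and Rora (81.3 ± 6.89 against 185 ± 14.3 CPM). Ppargc1a, the coactivator PGC-1alpha, had 315, 204, 177, 145 and 100 CPM in soleus and 80.5, 91.2, 102, 78.7 and 62.1 CPM in gastrocnemius. The groups overlapped, library 41 of soleus lying within the gastrocnemius range, and the log2 fold change was 1.18 ± 0.35 (adjusted p = 0.0118). Perm1, a muscle regulator induced by PGC-1 and the ERRs, was higher (504 ± 37.7 against 227 ± 19.6 CPM, log2 1.15) and Nrip1, the corepressor RIP140, lower (48.5 ± 8.05 against 115 ± 15.7 CPM, log2 -1.25).

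**Figure D3:**
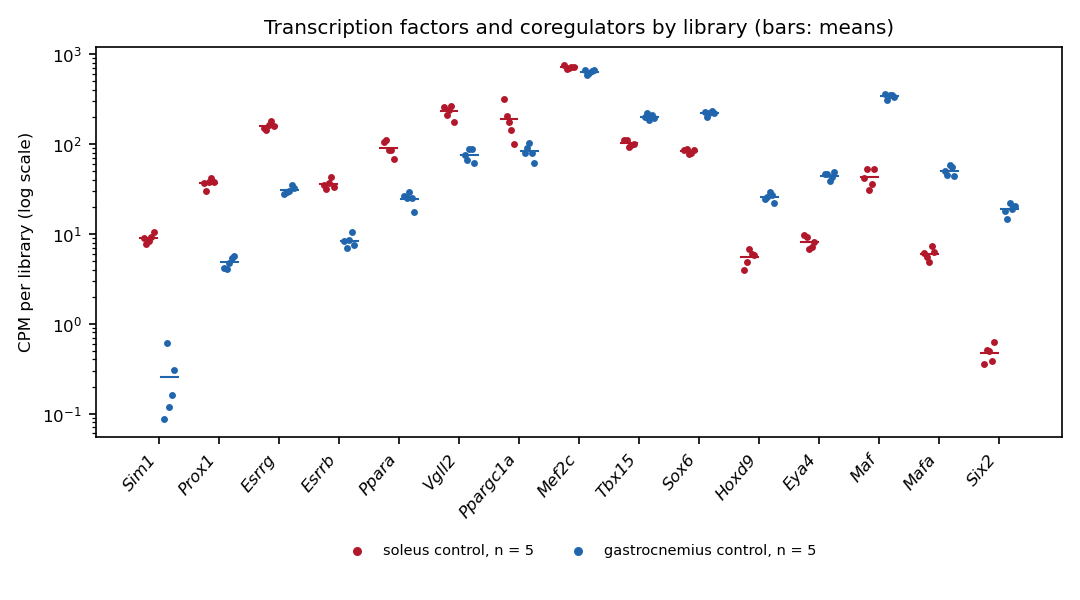
CPM per library on a log axis for 15 transcription factors and coregulators, soleus controls in red and gastrocnemius controls in blue (n = 5 each), with bars at the means. Ppargc1a overlaps between the muscles, Sim1 and Prox1 lie higher in soleus, and Six2 lies lower.

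Calcium-responsive and Hippo-linked factors came next. Mef2c did not pass the test (719 ± 28.3 against 643 ± 33.9 CPM, adjusted p = 0.0551; 2.38e-05 with library totals alone, 0.0328 with the replicate block and up to 0.173 over the 19 settings) and Mef2a was lower (112 ± 6.64 against 166 ± 2.76 CPM, log2 -0.57). Nfatc1, the calcineurin-controlled factor of slow fibres, was lower in transcript (53.2 ± 7.07 against 71.8 ± 4.55 CPM, log2 -0.43 ± 0.08), a call lost with library totals alone (adjusted p = 0.0783; 2.21e-06 to 0.0783 over the 19 settings), and Nfatc2 was higher (58.6 ± 8.45 against 28.7 ± 2.1 CPM, log2 1.03). Tead1, which binds MCAT elements, was higher (622 ± 63.8 against 402 ± 36.8 CPM, log2 0.63), and its cofactor Vgll2 was 3.03-fold higher (262, 213, 239, 267 and 174 CPM against 76, 66.2, 88.1, 88.9 and 62.3 CPM). Vgll3 and Vgll4 were lower (log2 -0.88 and -0.88). Among 23 myogenic regulators, 21 were tested, of which 4 were higher and 10 lower (totals: 9 and 9). Myod1, a determination factor enriched in fast muscle, was at 7.53 ± 2.2 against 18.4 ± 3.12 CPM (log2 -1.29 ± 0.34), Myf6 at 28.3 ± 3.63 against 66.3 ± 7.61 CPM (log2 -1.23) and the methyltransferase Smyd2 at 34.3 ± 1.42 against 103 ± 6.77 CPM (log2 -1.59).

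Genes of body position also differed between the neighbouring muscles. Of 31 Hox genes tested, 11 were higher in soleus, 7 lower and 13 not called (58.1% called, against a background of 49.3%). Hoxd9 had 4, 4.86, 6.77, 6.01 and 5.79 CPM in soleus and 24.7, 25.9, 29.5, 26.8 and 22.3 CPM in gastrocnemius, and Hoxd8 9.21 ± 1.67 against 37.8 ± 5.02 CPM (log2 -2.23 ± 0.12 and -2.03 ± 0.14). Hoxa13, of the distal limb, was lower (2.03 ± 0.209 against 5.08 ± 1.03 CPM) and Hoxb6 higher (3.05 ± 0.404 against 1.01 ± 0.144 CPM). Pitx1, a hindlimb factor, did not pass the test (0.809 ± 0.0837 against 0.861 ± 0.328 CPM, adjusted p = 0.845). Emx2 was higher (4.01 ± 1.07 against 0.78 ± 0.312 CPM, log2 2.34), with its antisense partner Emx2os at a mean of 122 counts against 142. Of 360 zinc finger genes named Zfp, 79 were higher and 64 lower (39.7% called), against a background of 49.3%; Zfp697 (9.63 ± 5 against 2.15 ± 0.533 CPM) and Zfp827 (32.4 ± 3.98 against 9.17 ± 0.683 CPM) were higher by the largest folds, and Zfp467 (7.31 ± 1.09 against 21.5 ± 1.56 CPM) was lower.

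Energy-sensing kinase subunits were among the most different signalling genes. Prkag3, the fast-muscle gamma subunit of AMP-activated protein kinase (AMPK), had 9.19, 10.1, 7.56, 11 and 15.8 CPM in soleus and 169, 143, 157, 159 and 146 CPM in gastrocnemius (log2 -3.85 ± 0.16, adjusted p = 1.84e-12). Prkab2, a beta subunit, had 45.4, 36.6, 37.7, 44.7 and 57.1 CPM in soleus and 387, 369, 356, 381 and 424 CPM in gastrocnemius, 8.65-fold lower (adjusted p = 2.79e-15). Library 41 was the highest soleus library for both subunits, and neither overlapped. Over the AMPK, AKT and mTOR genes, 15 of 44 tested were higher and 15 lower (totals: 19 and 7). Deptor, an mTOR inhibitor (31.1 ± 3.06 against 129 ± 9.1 CPM, log2 -2.06), and Ddit4l, another (15.2 ± 3.27 against 88.2 ± 15.1 CPM, log2 -2.54), were lower. Grb14 and Grb10, adaptors that dampen the insulin receptor, were higher (log2 1.27 and 0.72), as was the receptor gene Insr (166 ± 6.47 against 127 ± 2.98 CPM, log2 0.38).

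Calcium-dependent kinases were mostly lower in soleus. Of 28 tested calmodulin kinase and calcineurin genes, 15 were lower and 5 higher, with a median log2 fold change of -0.39. That is 71.4% called, against a background of 49.3%. Camk2a had 95, 75.4, 76.7, 93.1 and 99.3 CPM in soleus and 643, 584, 670, 640 and 666 CPM in gastrocnemius (log2 -2.87 ± 0.10, adjusted p = 1.93e-15). The myosin light chain kinases Mylk4 (171 ± 62.1 against 1766 ± 194 CPM, log2 -3.37 ± 0.32) and Mylk2 (176 ± 33.2 against 870 ± 48.4 CPM, log2 -2.30 ± 0.12) were lower as well. Rcan1 (193 ± 63.1 against 78.7 ± 18.1 CPM, log2 1.30) and Rcan2 (158 ± 13.3 against 71.3 ± 7.82 CPM, log2 1.14), inhibitors of calcineurin, were higher.

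Cyclic nucleotide genes were more often higher: 29 of 62 tested, with 10 lower and a median log2 fold change of 0.35 (62.9% called, against a background of 49.3%). Npr3, the natriuretic peptide clearance receptor, had 65.5, 76.8, 60.4, 89.1 and 60.9 CPM in soleus and 8.04, 6.19, 5.11, 5.37 and 6.23 CPM in gastrocnemius (log2 3.51 ± 0.15, adjusted p = 8.62e-13). Npr3 is not among these 62 genes. Prkg1, the cGMP-dependent kinase, was 3.04-fold higher (73.5 ± 5.57 against 24.2 ± 0.722 CPM) and Rapgef4, a cAMP-activated exchange factor, 5.11-fold higher (8.35 ± 0.665 against 1.64 ± 0.227 CPM). The phosphodiesterase Pde4b was lower (20.6 ± 7.54 against 50.1 ± 10.4 CPM, log2 -1.28) and Pde4c higher (12.1 ± 1.15 against 4.31 ± 1.06 CPM, log2 1.49). Nos1, the muscle nitric oxide synthase, was lower (34.5 ± 7.24 against 79.7 ± 8.23 CPM, log2 -1.21). Among 165 genes taken by symbol as G protein-coupled receptors, Npr3 included, 39 were higher and 30 lower (41.8% called, against a background of 49.3%). The thrombin receptor F2r was higher (35.3 ± 5.71 against 9.49 ± 1.64 CPM, log2 1.89), the adrenergic receptor Adra1a lower (2.21 ± 0.363 against 5.35 ± 1.61 CPM).

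Growth factor families were called at 50% to 65.6% in the Wnt, FGF, TGF-beta, EGF and insulin groups, against a background of 49.3%. The EGF and insulin groups, at 50% each, stood near that background. Ligands and antagonists stood at both ends. Of 61 Wnt genes, 18 were higher and 22 lower (totals: 21 and 14). Wnt4 had 3.05, 2.57, 3.35, 3.03 and 2.98 CPM in soleus and 26, 21.6, 33.3, 27.4 and 24.7 CPM in gastrocnemius (log2 -3.15 ± 0.13, adjusted p = 2.17e-14). Rspo3, a secreted Wnt amplifier, went the other way, with 10.6, 9.73, 11.7, 9.24 and 9.88 CPM in soleus and 1.03, 0.857, 0.679, 1.22 and 1.08 CPM in gastrocnemius (log2 3.38 ± 0.20, adjusted p = 3.96e-12). Both genes were tight within each muscle and did not overlap. Wnt5b (3.61 ± 1.49 against 0.692 ± 0.181 CPM) and the receptor Fzd10 (7.36 ± 1.66 against 1.87 ± 0.431 CPM) were higher, and the antagonists Dkk3 (1.62 ± 0.209 against 4.57 ± 1.06 CPM) and Sfrp1 (1.65 ± 0.265 against 4.45 ± 0.534 CPM) lower.

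Of 63 TGF-beta, BMP and activin genes, 13 were higher and 26 lower (totals: 22 and 14). Beside Mstn, its close relative Gdf11 was lower in soleus (3.21, 3.25, 3.46, 4.08 and 3.7 CPM against 20.9, 21.3, 20.8, 20.7 and 17.5 CPM, log2 -2.52 ± 0.13, adjusted p = 4.54e-13). Ltbp2, a latent TGF-beta binding protein (4.41 ± 0.667 against 1.59 ± 0.345 CPM), and the receptor Bmpr1b (17.6 ± 3.97 against 9.16 ± 1.16 CPM) were higher. Dual-specificity phosphatases, which switch off MAP kinases, stood on both sides, with Dusp18 higher (106 ± 10.2 against 23.7 ± 1.96 CPM, log2 2.17) and Dusp23 (10.7 ± 0.812 against 31.8 ± 2.61 CPM) and Dusp3 (53.7 ± 4.18 against 138 ± 6.66 CPM) lower. Stat5b, a transcription factor of growth hormone signalling, was lower (114 ± 7.99 against 291 ± 22.1 CPM, log2 -1.36).

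The slow and fast calcium pump genes differed in opposite directions, like the sarcomere genes. Atp2a2, the slow and cardiac calcium pump, had 3558, 3446, 4034, 4126 and 3751 CPM in soleus and 272, 208, 248, 325 and 266 CPM in gastrocnemius (log2 3.84 ± 0.15, adjusted p = 6e-14). Atp2a1, the fast pump, was at 6096 ± 454 against 22289 ± 1886 CPM (log2 -1.87 ± 0.09) and remained the more abundant of the pair per length in soleus, at 1750 RPKM against 715. Casq2, calcium storage of slow fibres, was higher (104 ± 13.3 against 12.8 ± 2.06 CPM, log2 3.01 ± 0.20). Pvalb, parvalbumin, a soluble calcium buffer, had 201, 146, 94, 149 and 267 CPM in soleus and 5778, 4896, 5010, 5606 and 5702 CPM in gastrocnemius (log2 -4.98 ± 0.56). Ryr1, the release channel, was lower (5903 ± 689 against 12226 ± 988 CPM, log2 -1.05), as were Cacng1, a subunit of the voltage sensor (39.7 ± 3.3 against 190 ± 24.8 CPM, log2 -2.26), Stim2, a sensor of store calcium (16.9 ± 1.35 against 68.4 ± 2.6 CPM, log2 -2.02) and Mrln, a pump inhibitor (5.82 ± 0.563 against 25.5 ± 3.73 CPM, log2 -2.13). Over 49 calcium genes, 13 were higher and 27 lower.

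Among 92 potassium channel genes, 18 were higher, 21 lower and 53 not called (totals: 36 and 15). The 42.4% called stood below the background of 49.3%. Kcnc4 had 11.2, 9.28, 7.78, 12.2 and 14.8 CPM in soleus and 91.5, 78.7, 113, 116 and 78.8 CPM in gastrocnemius (log2 -3.12 ± 0.29), and Kcnf1 was at 0.331 ± 0.201 against 6.03 ± 1.65 CPM (log2 -4.21 ± 0.37), both voltage-gated channel genes that were lower. Kcnn3, a small-conductance calcium-activated channel, was higher (13.4 ± 2.5 against 3.28 ± 0.707 CPM, log2 2.04 ± 0.20), as was the large-conductance Kcnma1 (154 ± 14.5 against 76.2 ± 2.42 CPM, log2 1.01). Of the sodium channels, the muscle isoform Scn4a had 441, 398, 418, 433 and 489 CPM in soleus and 853, 787, 915, 889 and 891 CPM in gastrocnemius (log2 -0.99 ± 0.07). Scn2a, a neuronal isoform, was higher at a level far below it (12.1 ± 4.34 against 2.24 ± 0.508 CPM, log2 2.44 ± 0.20). Clcn1, the chloride channel that steadies the resting potential, was lower by a similar step to Scn4a (102 ± 9.68 against 210 ± 8.7 CPM, log2 -1.04 ± 0.08).

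At the neuromuscular junction, 8 of 26 tested genes were higher and 10 lower (totals: 13 and 6). That is 69.2% called, against a background of 49.3%. Chrna1, the receptor alpha subunit, was higher (24.4 ± 1.53 against 11.3 ± 1.39 CPM, log2 1.11 ± 0.16) and Chrne, the adult epsilon subunit, lower (4.57 ± 0.598 against 8.31 ± 1.34 CPM, log2 -0.86). Ache, acetylcholinesterase, was lower (15.9 ± 1.02 against 46.6 ± 4.13 CPM, log2 -1.55 ± 0.09), and Colq, its collagen tail, higher (14.7 ± 3.35 against 8.79 ± 1.02 CPM, log2 0.74; the same-strand neighbour Hacl1 overlaps it with 224 counts against 654).

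The sodium pump changed its beta subunit. Atp1b2 had 29.4, 21.8, 21.3, 28.7 and 35.9 CPM in soleus and 423, 332, 379, 407 and 363 CPM in gastrocnemius (log2 -3.80 ± 0.30, adjusted p = 4.68e-08). Atp1b1 had 589, 539, 512, 518 and 473 CPM in soleus and 148, 132, 148, 153 and 144 CPM in gastrocnemius (log2 1.86 ± 0.07, adjusted p = 4.83e-15). In gastrocnemius Atp1b2 was the more abundant of the pair in CPM per length (93.2 against 59.9 RPKM), and in soleus Atp1b1 was (217 against 6.71 RPKM). Atp1b4, placed with the pump genes by its symbol, was higher (11.2 ± 2.95 against 2.86 ± 0.492 CPM). Whether its product serves the pump was not tested. Of 41 P-type pump genes, 18 were higher and 9 lower (65.9% called, against a background of 49.3%).

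Of 234 solute carriers tested, 80 were higher in soleus, 48 lower and 106 not called (54.7% called, against a background of 49.3%). Their median log2 fold change was 0.19, against 0.08 over all genes. Slc16a3, the lactate exporter MCT4, had 56.6, 40, 29.5, 35.6 and 55.1 CPM in soleus and 403, 427, 375, 430 and 403 CPM in gastrocnemius (log2 -3.23 ± 0.26, adjusted p = 5.04e-08). Slc38a4, an amino acid carrier, was 7.11-fold lower (22.9 ± 3.11 against 163 ± 4.75 CPM) and Slc37a4, the glucose 6-phosphate carrier, 6.47-fold lower (10.3 ± 1.19 against 66.6 ± 6.57 CPM). Slc7a15 led the higher carriers, with 5.35, 5.01, 6.77, 8.15 and 10.5 CPM in soleus and 0.323, 0.187, 0.413, 0.239 and 0.302 CPM in gastrocnemius. Slc9a4, a sodium-proton exchanger, followed (3.81 ± 0.565 against 0.748 ± 0.243 CPM, log2 2.34). Among 42 mitochondrial carriers, 17 were higher and 12 lower. Slc25a34 (45.1 ± 5.59 against 13.5 ± 2.57 CPM) and the glutamate carrier Slc25a22 (57 ± 24.2 against 17.8 ± 3.82 CPM) were higher, and Slc25a25, an ATP-magnesium carrier controlled by calcium (28.2 ± 8.73 against 112 ± 34.2 CPM, log2 -1.99 ± 0.39), and Slc25a30 (3.29 ± 0.427 against 14.7 ± 3.32 CPM) lower. Aqp4, the water channel of fast fibres, was lower (12.9 ± 2.71 against 29.9 ± 6.49 CPM, log2 -1.22).

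**Figure D4:**
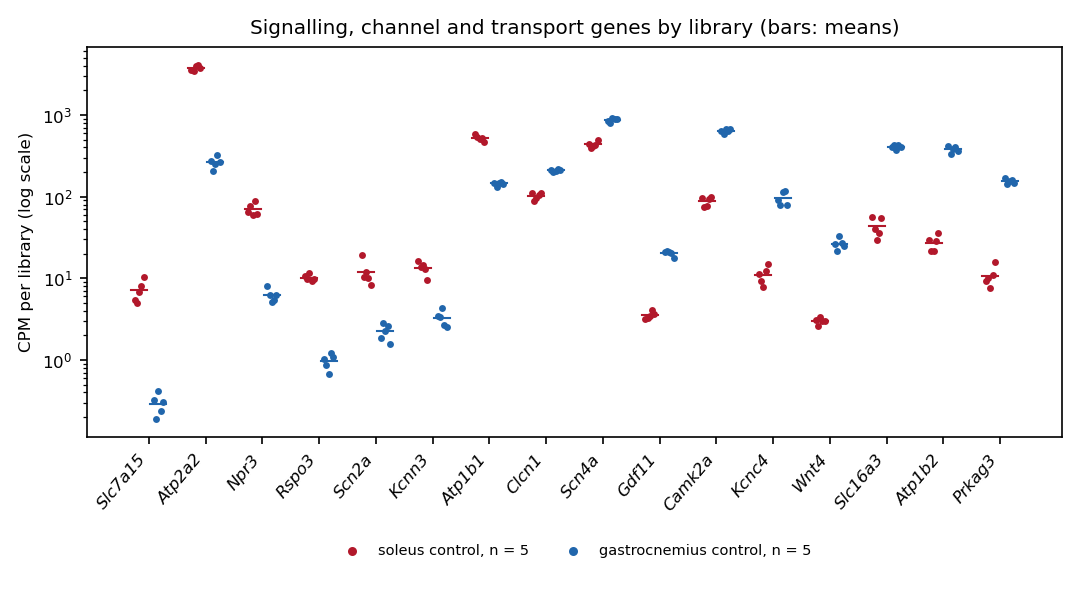
CPM per library on a log axis for 16 signalling, channel and transport genes, soleus controls in red and gastrocnemius controls in blue (n = 5 each), with bars at the means. Scn4a and Clcn1 are about a step of 1 on the log2 scale apart, and Slc7a15, Prkag3 and Atp1b2 are separated by wider gaps.

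Fuel genes divided by pathway. Of 46 genes of fatty acid uptake and oxidation, 37 were higher in soleus, 5 lower and 4 not called, with a median log2 fold change of 0.81. Lpl, lipoprotein lipase, had 1984, 2073, 2089, 2061 and 1787 CPM in soleus and 599, 572, 598, 611 and 572 CPM in gastrocnemius (log2 1.76 ± 0.09). Fabp3, the cytosolic fatty acid carrier, was 3.97-fold higher (1059 ± 130 against 266 ± 38.6 CPM), Cd36 2.68-fold (518 ± 42 against 193 ± 16.5 CPM) and Dgat2, of triglyceride synthesis, 4.24-fold (193 ± 16.4 against 45.5 ± 2.59 CPM). The exceptions were Ucp3, a mitochondrial uncoupling protein (98.5 ± 37 against 224 ± 38.3 CPM, log2 -1.19), Acsl3 (7.08 ± 0.977 against 18.1 ± 2.6 CPM) and Acsl6 (15.3 ± 1.8 against 28.7 ± 2.03 CPM), which were lower. Acsl3 and Acsl6 are overlapped by Utp14b, with 293 counts against 599, and Gm12224, with 140 against 1082.

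Glycolysis and glycogen genes went the other way for 27 of 52 tested, with 15 higher (median log2 fold change -0.51). Pygm, glycogen phosphorylase, had 2091, 1782, 1689, 1797 and 2179 CPM in soleus and 9398, 8490, 9320, 9206 and 9202 CPM in gastrocnemius (log2 -2.26 ± 0.10). Gpd1, of the glycerol phosphate shuttle, was 11.1-fold lower (38.4 ± 9.03 against 426 ± 28.1 CPM), Aldoa 4.08-fold (3273 ± 446 against 13341 ± 1095 CPM) and Ckm, the cytosolic creatine kinase, 3.68-fold (3431 ± 286 against 12638 ± 858 CPM). Pfkfb3, which makes the activator of phosphofructokinase, had 15.7, 16.7, 15.6, 20.8 and 40 CPM in soleus and 146, 159, 274, 192 and 425 CPM in gastrocnemius, with library 41 of soleus and library 8 of gastrocnemius the highest of their muscles. Ldhb, the lactate dehydrogenase subunit of oxidative tissue, was higher (703 ± 85.9 against 148 ± 22.6 CPM, log2 2.25 ± 0.12), and so were Gbe1, the glycogen branching enzyme (111 ± 9.78 against 41.7 ± 4.31 CPM), and Pfkfb2 (16.8 ± 2.48 against 6.09 ± 1.08 CPM; overlapped by Yod1 with 483 counts against 677). Mitochondrial creatine kinase, Ckmt2, was 1.95-fold higher (1080 ± 57.4 against 554 ± 57.4 CPM). Of the AMP deaminases, Ampd1 was lower (194 ± 9.1 against 901 ± 38.3 CPM) and Ampd3 higher (56.2 ± 6.04 against 16.1 ± 1.49 CPM). Ampd1 had the higher CPM of the pair in both muscles. Rnf141 overlaps Ampd3 with 970 counts against 2143.

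In the TCA cycle and ketone list, 17 of 29 were higher and 3 lower. Idh2 (855 ± 116 against 200 ± 38.2 CPM, log2 2.10 ± 0.13) and Bdh1, which uses the ketone body hydroxybutyrate (174 ± 13.3 against 33.3 ± 2.18 CPM, log2 2.38 ± 0.14), were the highest, and Pcx, pyruvate carboxylase, was lower (38.8 ± 0.719 against 100 ± 5.88 CPM, log2 -1.37 ± 0.07). Respiratory chain subunits were called higher for 12 of 40 genes of complex I (6 lower), 10 of 14 of complexes II and III (0 lower), 9 of 17 of complex IV (0 lower) and 6 of 15 of the ATP synthase (1 lower). Their median log2 fold changes were 0.09, 0.23, 0.25 and 0.20, against 0.08 over all genes. Sdhb of complex II was at 399 ± 28.2 against 264 ± 19.8 CPM (log2 0.60) and Cox7a1, the muscle subunit of complex IV, at 233 ± 26.5 against 158 ± 15.7 CPM (log2 0.56). Mb, myoglobin, differed more than any named subunit, with 4967, 5214, 4981, 4930 and 4989 CPM in soleus and 1287, 1138, 1348, 1403 and 1423 CPM in gastrocnemius (log2 1.93 ± 0.09).

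Secreted muscle factors were called for 32 of 61 tested, 14 higher and 18 lower (52.5%, against a background of 49.3%; totals: 20 and 13). Fgf1, an FGF with no export signal, was higher (95.4 ± 6.44 against 33.2 ± 0.541 CPM, log2 1.52 ± 0.10), as was Fndc5, the precursor of irisin (159 ± 6.27 against 58.7 ± 5.03 CPM, log2 1.44 ± 0.07). Bdnf, a neurotrophin, had 3.82, 4.08, 4.03, 6.37 and 5.3 CPM in soleus and 0.43, 0.455, 0.856, 1.59 and 1.01 CPM in gastrocnemius (log2 2.44 ± 0.32), while Nrtn, another neurotrophic factor, was lower (1.17 ± 0.349 against 4.33 ± 1.01 CPM). Igfbp5, an IGF-binding protein, was 3.68-fold lower (234 ± 40.7 against 863 ± 114 CPM) and Igf1 itself 1.92-fold lower (16.4 ± 2.2 against 31.5 ± 7.36 CPM). Sema3a, a repellent of axons, was lower (1.16 ± 0.343 against 5.4 ± 0.99 CPM, log2 -2.21 ± 0.25). Ostn, osteocrin, did not pass the test in controls (10.7 ± 2.8 against 13.2 ± 3.64 CPM, adjusted p = 0.328).

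Oxygen supply genes were higher for 18 of 28 tested and lower for 2. Vegfa, the vascular growth factor, had 393, 258, 331, 282 and 277 CPM in soleus and 148, 157, 180, 155 and 149 CPM in gastrocnemius (log2 0.96 ± 0.13), and Angpt1 was 2.69-fold higher (31.4 ± 4.2 against 11.6 ± 1.25 CPM). Endothelial markers were higher for 10 of 12, lower for 0, by small folds such as that of Kdr, a VEGF receptor (62.4 ± 5.3 against 36.2 ± 4.54 CPM, log2 0.78). Their summed level was 656 to 720 CPM in soleus and 520 to 556 CPM in gastrocnemius. The part of endothelial RNA in the difference of Angpt1 or Vegfa was not tested.

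Matrix genes and markers of other cell types also differed. Fibroblast markers were lower in soleus for 8 of 12 and higher for 0, with summed levels of 1868 to 2884 against 3694 to 5617 CPM. Col1a1 (548 ± 132 against 1343 ± 481 CPM, log2 -1.29 ± 0.25) and Col1a2 (458 ± 105 against 962 ± 272 CPM) carried much of that sum. Of 43 collagen genes, 8 were higher and 15 lower (totals: 10 and 8); Col6a6 was lower (7.15 ± 0.754 against 23.3 ± 2.16 CPM, log2 -1.70). Adamts8, a matrix metalloproteinase, was 12.1-fold higher (22.5, 21.6, 12.2, 24.1 and 13.9 CPM against 2.02, 2.14, 1.18, 1.46 and 0.948 CPM), and Lamb3, a laminin chain, 4.92-fold higher (3.91 ± 0.707 against 0.779 ± 0.307 CPM). Itga4, an integrin of leukocytes and muscle, was lower (3.53 ± 0.851 against 16.7 ± 2.75 CPM, log2 -2.25 ± 0.18). Schwann cell markers were lower for 5 of 10, with sums of 82 to 278 against 250 to 430 CPM, and macrophage markers for 4 of 12, with 136 to 234 against 170 to 266 CPM, both overlapping between muscles. With library totals alone, 2 Schwann cell and 0 macrophage markers were called. Satellite cell markers summed to 197 to 281 against 167 to 192 CPM. Smooth muscle and pericyte markers were at 1005 to 1103 against 935 to 1108 CPM, tendon markers at 286 to 582 against 349 to 839, adipocyte markers at 217 to 357 against 165 to 260, and red cell markers at 204 to 326 against 160 to 329. Lymphocyte markers stayed between 4.06 and 7.25 CPM in all 10 libraries. The spindle list, 4 of whose 6 genes were higher, is dominated by Pvalb, which fast fibres also express, and shares Myh7b with the slow list. What part the cell makeup has in the differences of matrix and signalling genes was not tested.

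Stress and breakdown genes differed by member. Of 48 antioxidant and stress genes, 14 were higher and 15 lower (totals: 20 and 13). The small heat shock proteins of the Z-disc were among the higher: Hspb7 had 2221, 1780, 2017, 2363 and 1930 CPM in soleus and 439, 362, 501, 492 and 462 CPM in gastrocnemius (log2 2.19 ± 0.10), with Hspb6 (1866 ± 200 against 703 ± 73.5 CPM) and Cryab (1023 ± 247 against 436 ± 99.5 CPM) beside it, whereas Hspb8 was lower (144 ± 26.9 against 284 ± 64.4 CPM, log2 -0.98). Of 35 protein breakdown genes, 6 were higher and 18 lower (totals: 9 and 7). Capn1, a calcium-activated protease (44 ± 3.86 against 95.1 ± 3.9 CPM, log2 -1.11), and Asb2, a ubiquitin ligase adaptor (368 ± 32.8 against 747 ± 71.8 CPM, log2 -1.02), were lower, and Bnip3, of mitophagy (209 ± 22.7 against 102 ± 5.32 CPM, log2 1.03), was higher. Capn1 is overlapped on the other strand by Gm10814, with 557 counts against 3329. Of 165 Asb, Fbxo, Klhl and Trim genes, 35 were higher and 49 lower (totals: 68 and 30), Klhl34 among the higher (78.3 ± 9.99 against 14.3 ± 2.26 CPM, log2 2.45 ± 0.15). Clock genes were called for 7 of 18 (3 higher, 4 lower; totals: 5 and 4) and immediate-early genes for 5 of 20 (4 higher, 1 lower), against the background of 49.3%.

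The muscle difference was largely shared by the knockout libraries, which are separate samples. With the same fit, 6987 genes (37.8%) were called between soleus and gastrocnemius knockouts, 4 against 4. Of the 9122 genes called in controls, 6258 were called in both (68.6% of the control calls and 89.6% of the knockout calls), 6254 of them in the same direction. Of the 3025 genes with a fold of at least 2 in controls, 2975 had the same sign in knockouts. Sim1, for example, had log2 fold changes of 5.13 in controls and 5.15 in knockouts, Six2 -5.28 and -5.05, and Npr3 3.51 and 3.36.

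The test of the difference between these contrasts called 13 genes (0.0703% of those tested, and 999 at an unadjusted p under 0.05). In 10 of them the absolute log2 fold change between muscles was larger in controls. Lrtm1, among these 10, turned sign, with 0.82 in controls and -0.61 in knockouts. Cd28 (-0.74 and 1.08), Mrvi1 (0.3 and -0.53) and Ostn turned sign as well. Itga4 had a log2 fold change of -2.25 in controls and -0.73 in knockouts (adjusted p of the difference 0.033), with gastrocnemius at 16.7 ± 2.75 CPM in controls and 8.45 ± 0.493 in knockouts. Pcx had -1.37 and -0.80 (0.038), with gastrocnemius at 100 ± 5.88 and 70.4 ± 9.48 CPM. Ostn had -0.30 and 1.95 (0.038), where the gastrocnemius knockouts were at 2.71 ± 0.713 CPM and the soleus knockouts at 10.5 ± 3.51. Cbfb, a partner of Runx factors named after its values were seen, had -2.25 and -1.56 (0.0186), with control soleus libraries within 22.5 to 23 CPM and control gastrocnemius libraries at 96.8 to 121. The other 9, also named for this test alone, were Bex1, C2cd4c, Cd28, Lrtm1, Mrvi1, Otog, Slc4a10, Ttll7 and Xpr1. Bex1 is overlapped on the other strand by Tceal7, with 444 counts against 202. With a replicate block on title numbers 33 apart, an alternative chosen after seeing the data, 32 genes were called for the difference (1275 at an unadjusted p under 0.05), 10 of the 13 among them. C2cd4c (edgeR adjusted p = 0.0564 with the block), Mrvi1 (0.0533) and Slc4a10 (0.0832) were not. Of the 22 genes added by the block, 6 are named above: Acsl3, Chrna1, Gdf11, Slc25a30, Slc7a15 and Sln. With any 1 of the 10 control libraries left out, the count was 2 (without soleus library 37) to 8 (without gastrocnemius library 8).

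**Figure D5:**
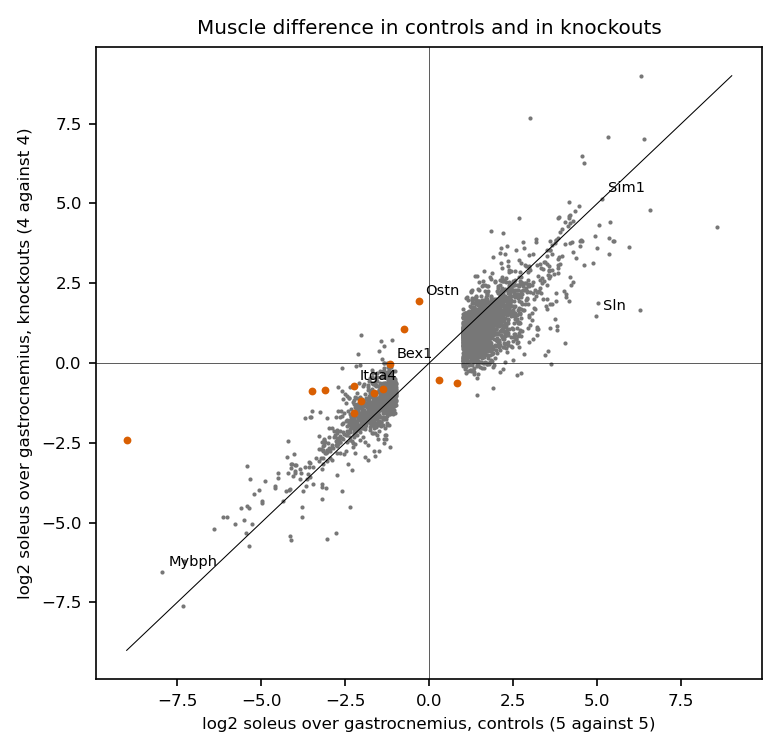
Log2 fold change of soleus over gastrocnemius in knockouts (4 against 4, vertical) against that in controls (5 against 5, horizontal) for the 3025 genes called with a fold of at least 2 in controls, in grey, and the 13 genes called for the difference, in orange; the diagonal marks equal values. Sim1 lies on the diagonal, and Ostn and Bex1 lie away from it.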

How the data were processed

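Total RNA from snap-frozen muscle was isolated with RNA STAT-60, treated with DNase and depleted of ribosomal RNA with KAPA RiboErase, per the labels' protocols. The authors deposited whole-number read counts per Ensembl gene, for which the submitters' processing notes name STAR 2.5.1a, featureCounts 1.4.6-p5 of Subread, bcl2fastq and GRCm38. Not given in the sources used here were the annotation release, the strand setting and whether multi-mapped reads counted. The deposited CPM and RPKM values, which equal the counts rescaled by library total and gene length to within 4.9e-10, were not used. Of 41388 deposited features, 40254 (97.3%) took a symbol from GENCODE M21.

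Genes passed filterByExpr at 10 counts per library and 15 in all. The counts of the 18 libraries in 4 groups were TMM-scaled and tested by robust quasi-likelihood in edgeR 4.0.16 under R 4.3.3, with Benjamini-Hochberg adjustment over all tested genes and a threshold of 0.05, and every adjusted p is from this fit unless another tool is named. On simulated counts the fit was checked against known changes in a small part of the genes. The simulation held no difference in scale between the muscles, so it does not test the scaling. Alternatives used DESeq2 1.42.0, limma 3.58.1 and other scalings, filters and sets of libraries. Levels are CPM on TMM-scaled sizes, and RPKM values here are those CPM per kilobase of the listed length. Counts of 0 over a group took a floor of 3 reads. Floors cover counting error only: the reads carry no molecular identifiers and may repeat a molecule.

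Any 2 libraries within a group differed (chi-square per gene 19.59 to 140.26), and none was merged. Labels give the muscles no common numbers. Each of the 9 gastrocnemius libraries was compared only with the soleus libraries of its own genotype, 5 for controls and 4 for knockouts. Each correlated best with the one whose title number is 33 higher. Over deviations from group means of 11434 genes, correlations were 0.15 to 0.26 for the 5 control pairs and 0.10 to 0.54 for all. That the libraries of a pair share a mouse is not stated.

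The comparison, the 32 gene lists, the 68 families taken by symbol and the rule for named genes were chosen with earlier results of these data known. Named genes were called, averaged at least 1 on the log2 CPM scale and did not overlap between muscles: the 15 with the largest fold change each way, up to 3 each way per list or family, and the 10 with the largest CPM difference each way, plus 40 genes named whatever their result. Ddx3y, Xist, Mir208b, Mir499, Mir27b, the B cell markers, the genes called for the difference with knockouts and the overlapping partners were named outside that rule. Of the genes tested, 12199 had an upstream region in RefSeq (GRCm38.p6). Some named genes are not reported here.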

Additional observations from a re-analysis of the deposited data

Results flagged for a closer look

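In 25 of 450 groups of 5 libraries, over the genes named here, 1 library stood apart from the other 4 by Dixon's test at 95%; chance flags about 5% of groups. Soleus library 34 was the library in 6 of them. It was high for Ampd3 (66.6 CPM, others 51.2 to 55.6), Hspb8 (191, others 127 to 140), Myf6 (34.8, others 26.3 to 27.5), Nr4a1 (195, others 70.2 to 106) and Zfp697 (18.3, others 5.67 to 8.74), and low for Esrra (115, others 126 to 129). Soleus library 41 was high for Pfkfb3 (40 CPM, others 15.6 to 20.8), Slc25a22 (99.5, others 41.6 to 53.6) and Ucp3 (163, others 72.2 to 94.8), library 36 high for Mb (5214, others 4930 to 4989) and low for Gss (15.9, others 22.8 to 25), and library 38 high for Mybph (0.924, others 0.347 to 0.511). Gastrocnemius library 3 was low for Aldoa (11462 CPM, others 13528 to 14323), Pygm (8490, others 9202 to 9398), Rxrg (43.1, others 51.3 to 54.6), Sox6 (202, others 224 to 231) and Tead1 (338, others 406 to 429), and high for Malat1 (4941, others 3035 to 3461). Gastrocnemius library 8 was low for Gdf11 (17.5 CPM, others 20.7 to 21.3) and Myh1 (3863, others 5000 to 5309) and high for Psmd8 (155, others 122 to 131). Library 4 was high for Nos1 (94 CPM, others 72.9 to 78.6) and Rapgef4 (2.04, others 1.47 to 1.58), library 5 for Myh6 (13, others 10.2 to 10.8) and library 1 for Sv2b (0.516, others 0.133 to 0.216).

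The muscle difference in controls differed from that in knockouts for 13 genes by the edgeR test of the difference itself. Its log2 values, controls minus knockouts, with adjusted p in brackets, were -1.12 for Bex1 (0.0294), -2.61 for C2cd4c (0.0294), -0.70 for Cbfb (0.0186), -1.82 for Cd28 (0.0133), -1.51 for Itga4 (0.033) and -2.26 for Ostn (0.038). They were -2.28 for Otog (0.0344), -0.57 for Pcx (0.038), -6.59 for Slc4a10 (0.0344), -0.85 for Ttll7 (0.0344), -0.69 for Xpr1 (0.0186), 1.44 for Lrtm1 (0.0146) and 0.83 for Mrvi1 (0.0344). Slc4a10 was counted at 0 in all 5 soleus control libraries, so that its fitted value depends on the prior count and is no bound.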

How the results depend on the processing

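The count of called genes (9122) was 8724 to 10508 over 9 other settings and 8360 to 9213 with 1 control library left out. With the 10 control libraries fitted alone, 4623 genes were higher and 4599 lower, and 1655 were at least 2-fold higher. In that fit 50 of 100 lists had a positive median. The share of called genes that were higher in soleus was 50.1% there, 51.1% with RLE size factors and 51.5% with DESeq2, against 55.6% in the main fit. Library totals in place of TMM factors moved the calls higher in soleus to 8386, those lower to 2122, those at least 2-fold higher to 3207 and the lists with a positive median from 59 to 91 of 100, and turned the balance of calls in 28 lists or families. With 1 control library left out, 4595 to 5201 genes were higher and 3742 to 4012 lower, 2770 to 3278 passed the 2-fold rule (1791 to 2292 higher, 961 to 1006 lower), 55 to 61 lists had a positive median, and 6779 to 7070 genes were called in knockouts. The 13 genes called for the difference between controls and knockouts became 2 to 8; the cause was not tested. Alternatives for that difference and for the knockouts were chosen after seeing the data. With a replicate block pairing title numbers 33 apart, 9545 genes were called (5312 higher, 4233 lower), and among the genes named only Eya1 and Mef2c changed their call in controls; the block called 32 genes for the difference and 7522 in knockouts. Of 225 named genes, 217 kept their direction and side of the threshold under all 19 settings that gave a value. Of 4274 gene values under those settings, 4 lost the call, 14 gained it and 0 turned. Mrvi1 lost its call in controls without gastrocnemius library 5 (edgeR adjusted p = 0.0622) or soleus library 41 (0.0505), and Eya1 gained one without gastrocnemius library 3 (0.0489) or soleus library 34 (0.00764). Depth limits genes such as Mir499, with 66 reads over the soleus group and 0 over the gastrocnemius group.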

Other observations

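Gene groups outside the lists above also differed. Long non-coding genes were mostly higher in soleus: of 1742 tested, 607 were at least 2-fold higher and 63 at least 2-fold lower, with a median log2 fold change of 0.78, against 1000 and 771 of 14634 protein-coding genes (median 0.03). Malat1, an abundant nuclear RNA, had 8481, 7386, 8365, 7757 and 8314 CPM in soleus and 3340, 4941, 3461, 3046 and 3035 CPM in gastrocnemius (log2 1.18 ± 0.20). The muscles also differed by level class: genes with a mean log2 CPM of at least 1 were at least 2-fold higher for 586 and lower for 602, and genes under it for 1439 and 398. Hairpin loci of microRNAs were at least 2-fold higher for 48 of 118 and lower for 9, among them Mir27b (5.7, 2.83, 4.52, 3.94 and 3.19 CPM in soleus and 0.602, 0.562, 1.06, 0.717 and 0.603 CPM in gastrocnemius), named after its values were seen, with the mature sequence printed with its seed in capitals from RefSeq.
miR-27b-3p: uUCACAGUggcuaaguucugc
Reads over Gm42418, a locus of ribosomal RNA sequence, were fewer in soleus (2846 ± 954 against 11556 ± 3044 CPM), and the part of unequal ribosomal RNA removal or of nuclear RNA in these class differences was not tested.

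Of 81 tested cytosolic ribosomal protein genes, 2 were higher and 30 lower (39.5% called, against 49.3% of all genes; 13 and 4 with library totals alone) and their median was -0.19 on the log2 scale. Proteasome subunits were higher for 3 of 46 and lower for 23 (56.5% called; 13 and 11 with library totals alone), Psmd8 among the lower (78.2 ± 6.76 against 133 ± 12.6 CPM, log2 -0.77). Ighm, the immunoglobulin M heavy chain, had 1.23, 1.53, 1.1, 1.71 and 2.34 CPM in soleus and 44.7, 66.3, 69.7, 31.9 and 34.5 CPM in gastrocnemius (log2 -4.98 ± 0.36), while the B cell markers Ms4a1 and Cd79a were each counted at 0 to 12 reads in every control library. Gstm7 (6.93 ± 1.69 against 1.8 ± 0.487 CPM), Gsto1 (48 ± 2.85 against 18.8 ± 2.34 CPM) and Gss (22.1 ± 3.54 against 6.87 ± 1.55 CPM) of glutathione use were higher, and Gstm1 (58.3 ± 4.41 against 114 ± 7.84 CPM) and Gstm2 (11.2 ± 1.29 against 24.7 ± 3.37 CPM) lower; Gss is overlapped by Acss2, with 2594 counts against 850.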
